A study of Homo sapiens with 3 samples.

Results

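The genes described here are FOXL2NB, PDE9A, ZNF675, PTGER2, CYP4X1, GHR, THEMIS2, GJD3 and AMDHD1. They were chosen because their read counts lay more than 2-fold from those of parental CAL27 cells in opposite directions in the 5FU-resistant and the OXA-resistant cells. They are 9 of the 19220 genes in the count table and 9 of the 13676 genes whose counts averaged 10 or more across libraries, called the analysed genes below. All 9 passed that minimum and met the rule, as did 79 other analysed genes, so the 9 are a selection from 88. Of the 9 genes, 7 were higher than CAL27 in the 5FU-resistant and lower in the OXA-resistant cells, and PDE9A and GHR went the other way. Among all analysed genes, 62 (0.453%) had the first pattern and 26 (0.19%) the second. Since the counts themselves chose the genes, their ratios are a description and carry no test.

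CAL27 is an established human line of oral squamous cell carcinoma. The study compared parental cells (labelled WT and drug-free), CAL27/5FU cells (labelled 5-fluorouracil resistant and kept in 10 μM 5FU) and CAL27/OXA cells (labelled oxaliplatin resistant and kept in 10 μM OXA), all 3 in the same serum-containing medium. The 5FU-resistant cells had been selected over months in rising 5FU, while how the OXA-resistant cells were derived, and whether either line is a single clone, is not given in the sources used here. From each line 1 library was used, and the resistant lines carry both a history of selection and the drug in the medium, so resistance, drug exposure and drift in culture cannot be told apart. Gene totals were 41786182 counts (CAL27), 37297713 counts (CAL27/5FU) and 43455488 counts (CAL27/OXA). The epithelial markers EPCAM (9428, 12457 and 10990 counts, in that order of lines) and CDH1 (14800, 13459 and 15076 counts) were present in all 3, while KRT14 had 58222, 948 and 8423 counts. EPCAM and CDH1 stayed within 2-fold in both resistant lines, but most of the squamous epithelial markers listed did not. Of these 8 markers, 6, with KRT14 among them, were more than 2-fold lower in the 5FU-resistant cells. In the OXA-resistant cells 4 of them were lower by as much, and 0 were that much higher in either line. No p-value was computed with 1 library used per line. Both comparisons use the same CAL27 library, so a chance low or high count there moves both ratios of a gene in the same direction.

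5FU blocks thymidylate synthesis and enters RNA and DNA, whereas oxaliplatin forms platinum adducts on DNA, so the resistant lines were selected by agents with different chemistry. The 9 genes belong to unrelated families. PTGER2 and GHR encode cell surface receptors, PDE9A, CYP4X1 and AMDHD1 encode enzymes, GJD3 encodes a gap junction protein, THEMIS2 an adaptor of immune receptor signalling, ZNF675 a zinc finger protein, and FOXL2NB an open reading frame beside FOXL2.

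Levels are given as FPKM, the fragment count scaled to transcript length and library total, where genes are compared with each other, because counts grow with transcript length. All 9 genes were expressed at low levels and lay under the median FPKM of the analysed genes in every library. In these bulk libraries a lower level can mean fewer cells that express a gene or less RNA per cell, and these cannot be told apart. In CAL27, 7 of the 9 were under 1 FPKM, and the range was 0.0632 FPKM for GHR to 2.81 FPKM for THEMIS2. Among the 7 genes that were higher in CAL27/5FU, all 7 exceeded 1 FPKM in CAL27/5FU, with a median of 2.57 FPKM, and 6 of 7 were under 1 FPKM in CAL27/OXA, with a median of 0.0557 FPKM. The other 2, PDE9A and GHR, reached 2.12 and 0.947 FPKM in CAL27/OXA and had 2 counts and 0 counts in CAL27/5FU.

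**Figure D1:**
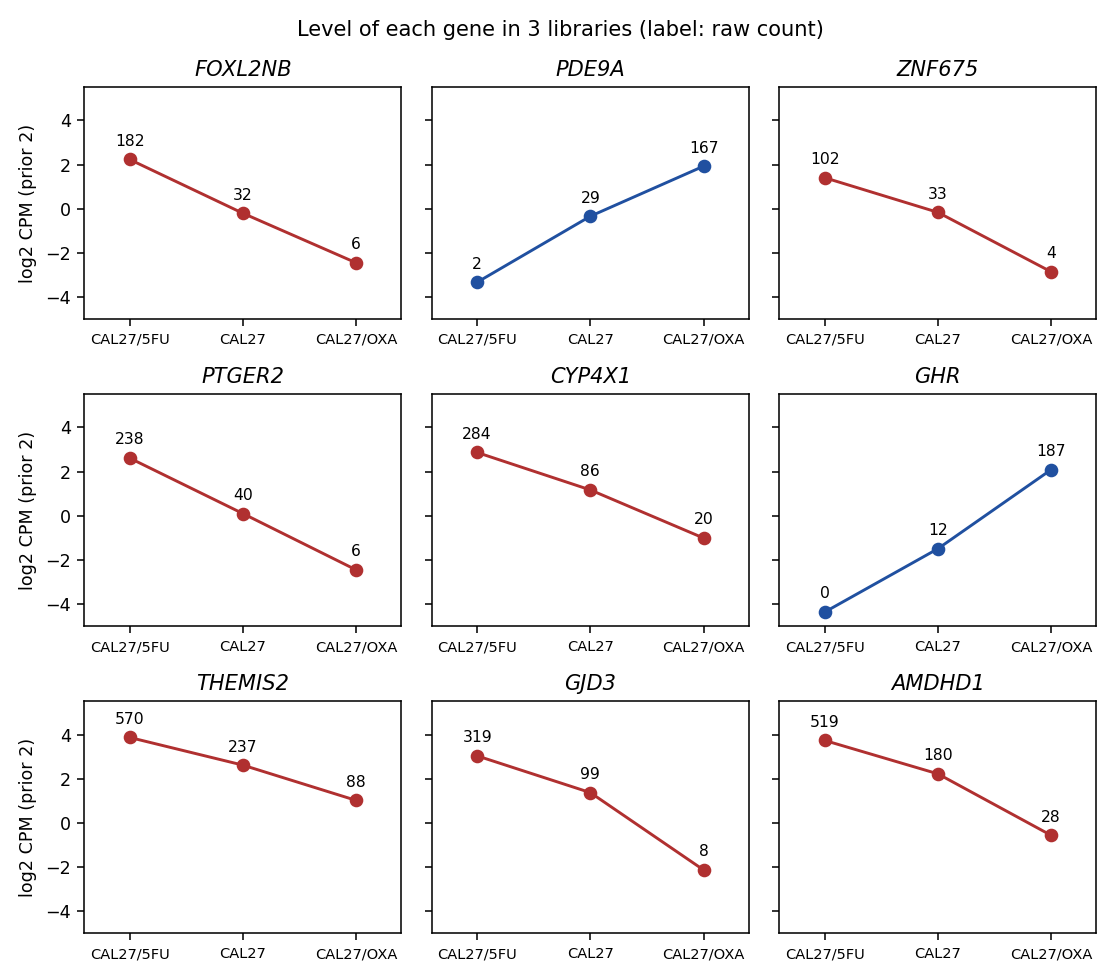
Level of each of the 9 genes (vertical axis, log2 CPM with a prior count of 2) in the 3 libraries, with 1 point per library labelled with its raw count. GHR (0 counts in CAL27/5FU) and PDE9A, in blue, are high in CAL27/OXA, and the other 7 genes, in red, are high in CAL27/5FU and low in CAL27/OXA.

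PTGER2 encodes the EP2 receptor for prostaglandin E2, which couples to Gs and raises cyclic AMP. PTGER2 (ENSG00000125384.6, chr14:52314305-52328606, plus strand, GRCh38) had 40 counts in CAL27, against 238 in CAL27/5FU and 6 in CAL27/OXA. CAL27/5FU was therefore the highest library and CAL27/OXA the lowest, with CAL27 between them. The log2 ratio to CAL27 was 2.51 in CAL27/5FU, with an exact 95% counting interval of 2.08 to 3.09, and -2.55 in CAL27/OXA, with an interval of -4.46 to -1.68. Among the 7 genes that were higher in CAL27/5FU it had the largest ratio there. The RefSeq (GRCh38.p14) sequence before its start, chr14:52314062-52314304 on the plus strand, is shown because EP2 signals through cyclic AMP and this stretch holds the letters of the core of a cyclic AMP response element (TGACG on either strand). Capitals mark this match and 2 GC boxes (GGGCGG on either strand).
PTGER2: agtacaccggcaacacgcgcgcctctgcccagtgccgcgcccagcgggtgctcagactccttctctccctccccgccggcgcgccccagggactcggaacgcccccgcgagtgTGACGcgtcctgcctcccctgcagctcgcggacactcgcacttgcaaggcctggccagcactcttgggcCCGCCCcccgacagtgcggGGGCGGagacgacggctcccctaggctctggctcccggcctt
This core motif lies 137 bases before the RefSeq start and was present in 21.2% of all 35116 RefSeq promoter windows of 250 bases. A match describes letters, and no binding was measured.

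Prostaglandins are made from arachidonic acid by the cyclooxygenases PTGS1 and PTGS2 and by terminal synthases, and HPGD degrades them. Of 9 analysed genes for synthesis and transport, 1 was more than 2-fold higher and 2 lower in CAL27/5FU (median log2 ratio 0.21), and 2 were higher and 3 lower in CAL27/OXA (median -0.054). PTGS1 was low in both resistant lines, with 4794 counts in CAL27, against 577 in CAL27/5FU and 1636 in CAL27/OXA. PTGS2 had 447, 738 and 1102 counts, and PTGES, a prostaglandin E synthase, had 689, 802 and 189 counts. Thus PTGES was lower in the line in which PTGER2 was lower (log2 ratio -2.04) and was near its CAL27 level in CAL27/5FU (0.21). HPGD was just past 2-fold lower in both lines (82, 40 and 44 counts). Of the other prostanoid receptors, PTGER4, the second Gs-coupled receptor for prostaglandin E2, was higher in both lines with 90, 219 and 218 counts, and TBXA2R had 13, 9 and 20 counts.

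GHR encodes the growth hormone receptor, a cytokine receptor that signals through JAK2 and STAT5. GHR (ENSG00000112964.13, chr5:42423777-42721878, plus strand) had 12 counts in CAL27, against 0 in CAL27/5FU and 187 in CAL27/OXA. With the 0 set to a floor of 3 counts and the other counts taken as exact, GHR was 4.02-fold lower in CAL27/5FU than in CAL27. On the same footing it was 54.9-fold higher in CAL27/OXA than in CAL27/5FU. The counting intervals allow smaller differences. For the log2 ratio of CAL27/5FU to CAL27 the interval had no lower limit and an upper limit of -1.48. For CAL27/OXA to CAL27/5FU its lower limit was 5.47. The log2 ratio of GHR in CAL27/OXA to CAL27 was 3.58, with a counting interval of 2.93 to 4.75. This was the largest upward ratio among the 9 genes. The low side rests on 12 counts in CAL27, and with the deposited FPKM values and a pseudocount of 0.1 the CAL27/5FU ratio was -0.71, no longer past 2-fold. The pseudogenes SERBP1P6 and AC093225.1 lie within GHR on the other strand and are not in the count table.

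Of 13 other analysed genes of growth hormone receptor signalling, in CAL27/5FU 3 were higher and 0 lower (median log2 ratio 0.021), and in CAL27/OXA 2 were higher and 0 lower (median -0.16). JAK2, the kinase bound to the receptor, had 430, 741 and 871 counts in the order used above. The feedback inhibitors SOCS2 (113, 550 and 433 counts) and SOCS3 (1210, 3141 and 3013 counts) were higher in both resistant lines, thus also in the line with no GHR count. PRLR, the related prolactin receptor, had 1, 57 and 0 counts and was thus higher in CAL27/5FU, the line with no GHR count. Its counts in CAL27 and CAL27/OXA both lie under the floor, so the order of these 2 libraries is not resolved.

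PDE9A encodes a phosphodiesterase that hydrolyses cyclic GMP with high affinity. PDE9A (ENSG00000160191.17, chr21:42653636-42775509, plus strand) had 29 counts in CAL27, against 2 in CAL27/5FU and 167 in CAL27/OXA. Its log2 ratio was -2.99 in CAL27/5FU, with an interval of -6.98 to -1.88, and 2.26 in CAL27/OXA, with an interval of 1.76 to 2.96. The wide lower interval comes from 2 counts. The antisense gene AP001627.1 lies within PDE9A and is not in the count table. The strand setting of the counting is not given in the sources used here, so reads of the 2 genes cannot be told apart.

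Of the 12 other analysed phosphodiesterase genes, 4 were higher and 0 lower in CAL27/5FU (median log2 ratio 0.60), and 4 were higher and 2 lower in CAL27/OXA (median 0.38). PDE11A, which hydrolyses both cyclic nucleotides, had 27, 164 and 62 counts, and PDE2A and PDE3A were higher in both lines with 23, 79 and 61 counts and 4, 41 and 33 counts. PDE4A, specific for cyclic AMP, had 333, 195 and 146 counts. Genes that make or sense cyclic GMP included 7 analysed genes, of which 2 were higher and 1 lower in CAL27/5FU and 3 were higher and 2 lower in CAL27/OXA (medians 0.70 and 0.80). The natriuretic peptide receptor NPR1 had 41 counts in CAL27 and 0 in both resistant lines, NPR2 had 117, 473 and 234 counts, and the clearance receptor NPR3 had 6, 81 and 27 counts. Of the cyclic GMP-dependent kinases, PRKG1 had 28, 47 and 85 counts and PRKG2 had 51, 102 and 119 counts, and the log2 ratios of PRKG2 were near-equal in the resistant lines (0.97 and 1.01).

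CYP4X1 encodes an orphan member of the cytochrome P450 family 4, whose other members hydroxylate fatty acids. CYP4X1 (ENSG00000186377.7, chr1:47023568-47050751, plus strand) had 86 counts in CAL27, against 284 in CAL27/5FU and 20 in CAL27/OXA. Its log2 ratios were 1.69 (interval 1.36 to 2.08) in CAL27/5FU and -2.18 (interval -3.07 to -1.58) in CAL27/OXA. The 2 other analysed family members, CYP4F11 (952, 487 and 1016 counts) and CYP4V2 (274, 251 and 173 counts), stayed within 2-fold in both lines.

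AMDHD1 encodes imidazolonepropionase, an enzyme of histidine breakdown that acts after histidine ammonia-lyase (HAL) and urocanase. AMDHD1 (ENSG00000139344.7, chr12:95943293-95968716, plus strand) had 180 counts in CAL27, against 519 in CAL27/5FU and 28 in CAL27/OXA. Its log2 ratio was 1.51 in CAL27/5FU, with an interval of 1.27 to 1.77, and -2.78 in CAL27/OXA, with an interval of -3.50 to -2.29. AMDHD1 also stayed past 2-fold in opposite directions in FPKM with a pseudocount of 1, and it was the only one of the 9 to do so. Of 5 other analysed genes of histidine metabolism, 1 was higher and 2 lower in CAL27/5FU (median -0.055) and 0 were higher and 1 lower in CAL27/OXA (median -0.18). HAL, the first step of the pathway and a neighbour of AMDHD1 3946 bases away, had 26, 12 and 26 counts. HNMT, which methylates histamine, had 3, 35 and 2 counts, and CARNS1, which makes carnosine, had 47, 20 and 11 counts. The 59 bases at chr12:95943234-95943292 on the plus strand, which lie in no annotated gene, are shown because they stand between AMDHD1 and the divergent gene CCDC38. Capitals mark 2 adjacent GC boxes.
AMDHD1: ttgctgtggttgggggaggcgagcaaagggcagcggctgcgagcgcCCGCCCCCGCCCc
CCDC38 starts 319 bases from AMDHD1 on the minus strand and had 8, 44 and 9 counts. It was thus higher in CAL27/5FU (log2 ratio 2.21) like AMDHD1, and in CAL27/OXA it was near its CAL27 level (-0.02), unlike AMDHD1.

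GJD3 encodes a connexin, the protein unit of gap junction channels. GJD3 (ENSG00000183153.6, chr17:40362931-40363815, minus strand) had 99 counts in CAL27, against 319 in CAL27/5FU and 8 in CAL27/OXA. Its log2 ratio of -3.50 in CAL27/OXA, with an interval of -5.07 to -2.78, was the lowest of the 9 genes, and that in CAL27/5FU was 1.66, with an interval of 1.35 to 2.02. The antisense gene AC080112.1 covers GJD3 and is not in the count table, and without the strand setting its reads cannot be told apart from those of GJD3. Where another connexin passed 2-fold, it was lower than in CAL27. Of 10 analysed, 0 were higher and 4 lower in CAL27/5FU (median -0.81), and 0 were higher and 3 lower in CAL27/OXA (median -0.50). GJB2, a connexin of stratified epithelium, had 15482, 4005 and 3309 counts, and GJB6 had 1113, 15 and 10 counts. GJA1 had 2329, 2308 and 3563 counts.

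THEMIS2 encodes an adaptor that binds GRB2, VAV and the kinase LYN and is known from B cells and macrophages. THEMIS2 (ENSG00000130775.15, chr1:27872543-27886685, plus strand) had 237 counts in CAL27, against 570 in CAL27/5FU and 88 in CAL27/OXA. With log2 ratios of 1.25 (interval 1.04 to 1.48) and -1.60 (interval -1.99 to -1.26), it was the least changed of the 9 and the one nearest to the threshold. Leukocyte markers were measured beside it. PTPRC, the pan-leukocyte marker, had 2, 0 and 0 counts, CD3E had 7, 7 and 7, and LYZ had 2, 5 and 0. CD14, a monocyte marker that epithelial cells can also express, had 637, 1290 and 341 counts, and ITGAM had 176, 27 and 38. The summed FPKM of these 5 markers was 10.6 in CAL27, against 22.1 in CAL27/5FU and 5.23 in CAL27/OXA, nearly all of it CD14, which is itself 1 of the 88 genes with opposite ratios. Of 5 analysed genes of the THEMIS family and its partners, 0 passed 2-fold in CAL27/5FU (median 0.0044) and 2 were lower in CAL27/OXA (median -0.31). These were LYN, with 3691, 3795 and 1795 counts, and VAV3, with 878, 441 and 366 counts.

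ZNF675 encodes a zinc finger protein with a KRAB domain, which has been described as an inhibitor of TRAF6 signalling. ZNF675 (ENSG00000197372.9, chr19:23525631-23687220, minus strand) had 33 counts in CAL27, against 102 in CAL27/5FU and 4 in CAL27/OXA. Its log2 ratios were 1.57 (interval 1.04 to 2.23) in CAL27/5FU and -2.69 (interval -5.19 to -1.74) in CAL27/OXA. The gene lies in a cluster of closely related zinc finger genes on the short arm of chromosome 19, and how reads that match several copies were counted is not given in the sources used here, so its counts are uncertain. The pseudogenes AC073544.1, RPS27P29 and VN1R93P also lie within ZNF675 and are not in the count table. Of 33 listed genes of this cluster, 30 were in the count table, and 23 of those had 0 counts in all 3 libraries. The 4 others among the analysed genes all stayed within 2-fold in both lines (medians -0.21 and -0.067). TRAF6 itself had 5416, 5715 and 12034 counts, with a log2 ratio of 0.07 in CAL27/5FU and 0.96 in CAL27/OXA. TNFSF11, the ligand of RANK, had 0, 33 and 0 counts, and of the 3 analysed genes of the TRAF6 and RANK list it was the 1 past 2-fold. The sequence before the start of ZNF675, chr19:23687221-23687462 read on the minus strand, is shown because it differs in composition from that of PTGER2. It has 49.6% G and C against 73.3%. Capitals mark overlapping letters of TATA boxes (TATAAA on either strand), 240 and 238 bases before the RefSeq start. They also mark 2 CCAAT boxes, 52 and 23 bases before it.
ZNF675: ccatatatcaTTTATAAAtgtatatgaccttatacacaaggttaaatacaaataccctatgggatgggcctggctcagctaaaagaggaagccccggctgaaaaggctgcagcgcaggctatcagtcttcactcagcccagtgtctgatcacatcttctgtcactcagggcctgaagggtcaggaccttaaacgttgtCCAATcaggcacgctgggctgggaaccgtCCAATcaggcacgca

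FOXL2NB is a small gene named for its position next to FOXL2, a forkhead transcription factor of the ovary and eyelid. FOXL2NB (ENSG00000206262.8, chr3:138947234-138953451, plus strand) had 32 counts in CAL27, against 182 in CAL27/5FU and 6 in CAL27/OXA. Its log2 ratio was 2.43 (interval 1.95 to 3.09) in CAL27/5FU and -2.24 (interval -4.15 to -1.33) in CAL27/OXA. FOXL2 (chr3:138944224-138947140, minus strand) starts 94 bases away in the opposite direction and had 52, 217 and 32 counts. Its log2 ratios were 2.01 (interval 1.61 to 2.52) and -0.85 (interval -1.57 to -0.23), so FOXL2 had the same order of libraries, with CAL27/OXA short of 2-fold. Among the other 9 nearest analysed genes, 8 were below CAL27 in CAL27/5FU (median -0.60) and 9 in CAL27/OXA (median -0.50). The 76 bases at chr3:138947141-138947216 on the plus strand lie between the pair and are shown for that reason. Capitals mark a cyclic AMP response element core, read here on the other strand, and a GC box.
FOXL2NB: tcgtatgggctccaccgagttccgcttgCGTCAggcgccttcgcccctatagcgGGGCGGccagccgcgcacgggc
FOXL1, the related forkhead gene, had 22, 9 and 4 counts and was lower in both lines.

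**Figure D2:**
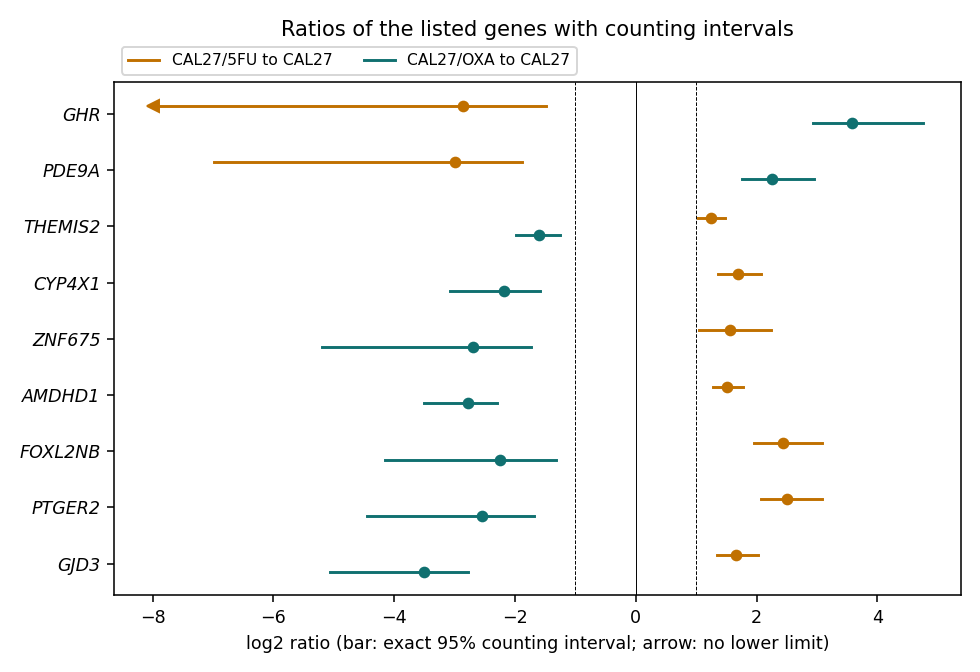
Log2 ratios of the 9 genes (CAL27/5FU and CAL27/OXA, each against CAL27), with exact 95% counting intervals as bars and dashed lines at 2-fold. All 9 pairs of intervals lie wholly past 2-fold on opposite sides, and GHR in CAL27/5FU has no lower limit because it had 0 counts.

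Both counting intervals of each of the 9 genes lay wholly past 2-fold, as a description, since the same counts chose the genes and the intervals are not corrected for that choice. They do not cover variation between cultures, which the 1 library used per line cannot show. Of the 88 genes with opposite ratios, 23 had both intervals past 2-fold, the 9 and 14 others.

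Each direction taken alone was common among all genes. In CAL27/5FU, 1157 of the 13676 analysed genes (8.46%) exceeded CAL27 more than 2-fold and 919 (6.72%) lay below it by as much. In CAL27/OXA, 894 (6.54%) were higher and 1269 (9.28%) were lower. With scaling by total counts alone the splits were 1432 higher and 699 lower in CAL27/5FU and 1100 higher and 1052 lower in CAL27/OXA. All 88 met the same rule, how the 9 were picked from them is not given in the sources used here, and nothing is read from their share. CD14 (log2 ratios 1.01 and -1.09) and IRX3 (-1.31 and 1.00) lay just inside the threshold, and LRRC7 (0.997 and -1.16) and CDC42EP5 (-0.989 and 1.12) lay just outside.

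**Figure D3:**
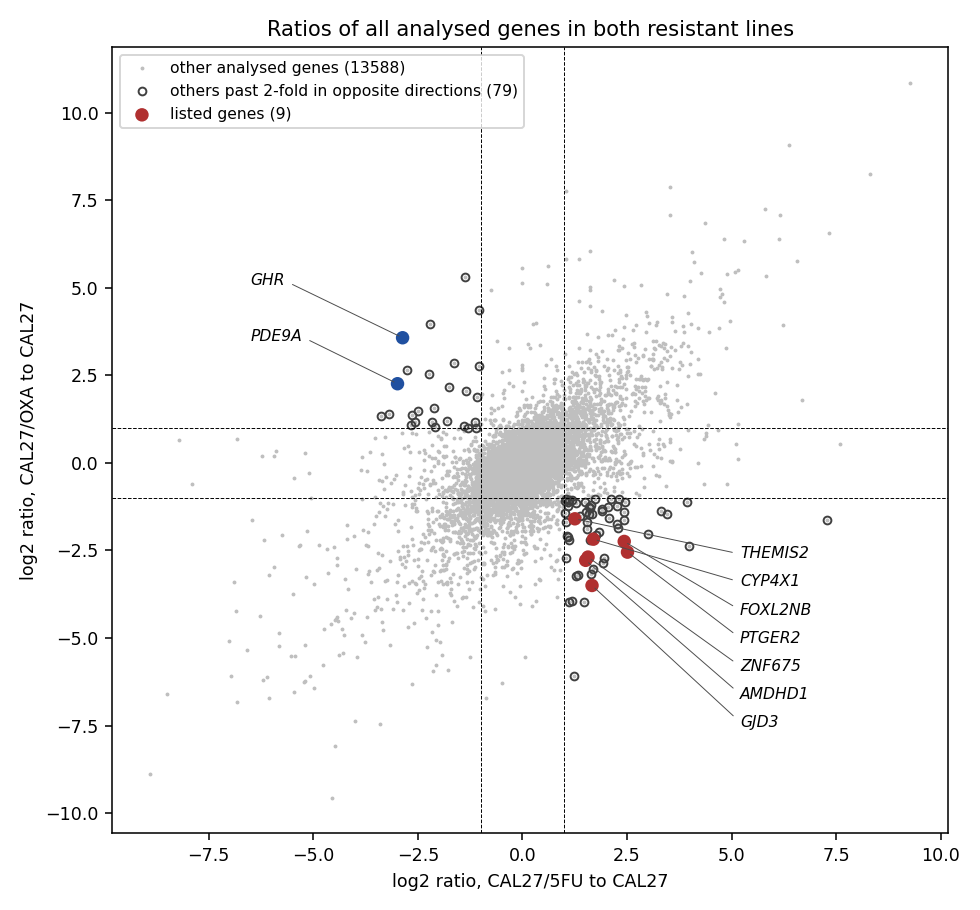
Log2 ratio to CAL27 in CAL27/5FU (horizontal) against that in CAL27/OXA (vertical) for the analysed genes, with dashed lines at 2-fold and the 9 genes labelled (filled points). Both axes share the CAL27 library, and the 88 genes with opposite ratios fill the upper left (26) and lower right (62) corners.

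Among the other 79 genes, those with the largest opposite ratios included HCLS1, an adaptor of haematopoietic cells, with 397 counts in CAL27, against 57 in CAL27/5FU and 2872 in CAL27/OXA. This was the same order of libraries as for PDE9A and GHR, at a higher level (33.3 FPKM in CAL27/OXA for HCLS1). TMPRSS2, a membrane serine protease, had the order of the other 7 genes with 91, 751 and 24 counts, as did BICC1, an RNA-binding protein, with 8, 156 and 0. HLA-DPB1, a chain of an MHC class II molecule, had 28, 115 and 3 counts, and KLHDC7B had 100, 386 and 14. NUDT11 (16, 2 and 316 counts) and FOLR3 (7, 0 and 57) resembled GHR in having almost no reads in CAL27/5FU. ASTN2, PIK3C2G and MAOB completed the top 10 with at most 37 counts in any library. Both counting intervals lay past 2-fold for HCLS1, TMPRSS2, HLA-DPB1 and KLHDC7B. This did not hold for BICC1, FOLR3, NUDT11, ASTN2, PIK3C2G and MAOB.

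Likeness was measured as the distance between pairs of log2 ratios (prior count of 2), over 3 libraries. The median pair of the 7 genes higher in CAL27/5FU was 1.66 and -2.55, and the nearest other analysed genes were NAALADL2 at a distance of 0.337, HLA-DPB1 at 0.344 and KLHDC7B at 0.395. For the median pair of PDE9A and GHR, only 2 genes, the nearest were HCLS1 at 0.306, FOLR3 at 0.798 and NUDT11 at 1.27. The last 2 were thus less alike than the 3 genes above. These distances and their order depend on the prior count, because the CAL27/5FU ratios of GHR and FOLR3 rest on 0 counts. NAALADL2 had only 11, 38 and 1 counts.

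The 9 genes lay on 8 chromosomes, with CYP4X1 and THEMIS2 both on chromosome 1. Their chromosomal neighbours, the 5 nearest analysed genes on each side of each gene, numbered 90. Of these, 0 were past 2-fold in both lines in the directions of their own gene, which at 0.453% and 0.19% of all analysed genes does not set them apart, and 13 had the same pair of signs. Of the 90, 9 were higher and 5 lower in CAL27/5FU (median log2 ratio -0.024), where 8.46% and 6.72% of all analysed genes were. In CAL27/OXA 3 were higher and 9 lower (median -0.056), where 6.54% and 9.28% of all were. The 1 neighbour with opposite ratios past 2-fold was ABCG1, a sterol exporter before PDE9A, and its 11, 41 and 5 counts ran in reverse to PDE9A. GPR137C near PTGER2 (23, 96 and 28 counts), IFI6 near THEMIS2 (6092, 32796 and 8790 counts) and SMPDL3B, also near THEMIS2 (92, 424 and 86 counts), were higher in CAL27/5FU only, as judged by the 2-fold limit and without a test of the difference. HMGCS1, the sterol synthesis gene near GHR, was lower in both lines with 23478, 4868 and 10262 counts. IGFBP4 near GJD3 was higher in both lines, with 255, 2565 and 1012 counts. The 10 neighbours of ZNF675 all stayed within 2-fold, but they lay 2196206 to 6124678 bases away and so do not describe the region beside it. For the other listed genes the farthest neighbour lay between 260481 bases (THEMIS2) and 1988379 bases (FOXL2NB) away.

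**Figure D4:**
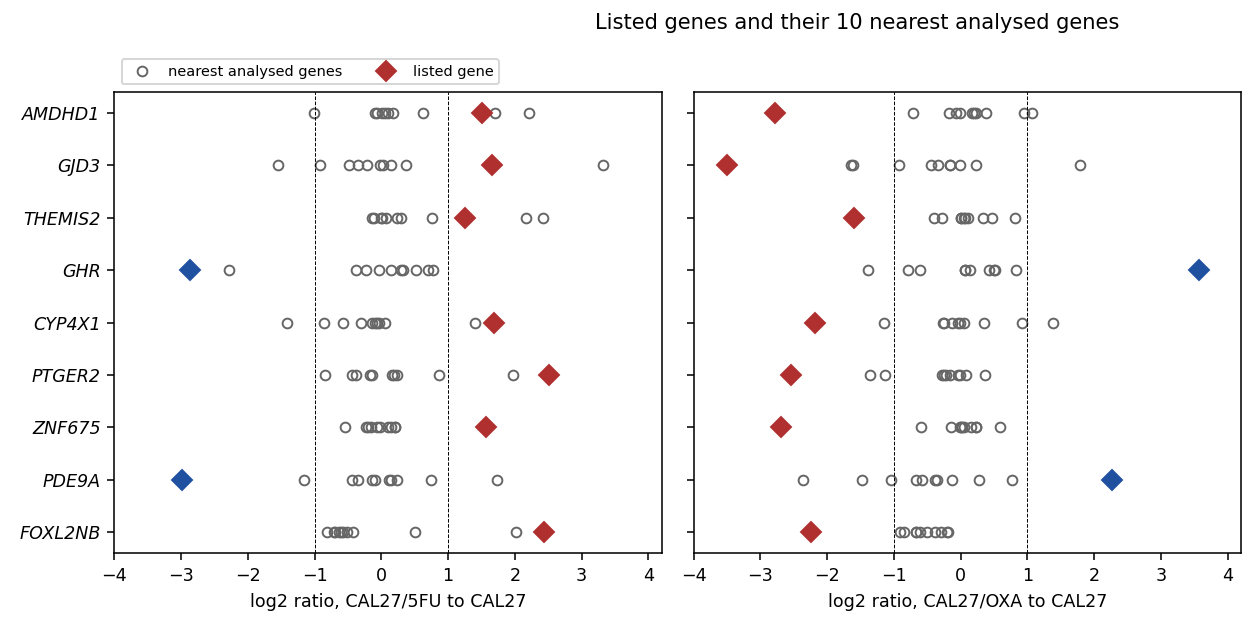
Log2 ratios to CAL27 of the 10 nearest analysed genes around each of the 9 genes, in CAL27/5FU and CAL27/OXA (open circles), with the gene itself as a diamond. FOXL2 beside FOXL2NB (2.01 and -0.85) has the same signs as its neighbour, and most other neighbouring genes lie between the lines at 2-fold.

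None of the motifs searched near the gene starts was found for all matched genes. RefSeq windows of 250 bases before the start were found for 7 of the 9 genes, as 14 windows of which several belong to GHR, and PDE9A and GJD3 were not matched. On either strand, GC boxes were in the windows of 5 of 7 genes (42.6% of all windows held one), TATA boxes of 3 (10.7%), cyclic AMP response element cores of 3 (21.2%) and CCAAT boxes of 2 (32.0%). A TCF/LEF site (CTTTGA) was found for 1 gene, GHR (11.2% of all windows), as was a STAT5 site (TTCNNNGAA, 6.57%), which overlapped a TCF/LEF match in 1 GHR window. E-boxes (CACGTG, 6.34%) and AP-1 sites (TGANTCA, 6.57%) were in 0 of the 7. Genes with several windows have more chances to hold a motif, and an absent match says only that these letters are not in the windows.

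Over all 12 lists of partner genes, which held 74 other analysed genes, 0 had opposite ratios past 2-fold. With 0.453% and 0.19% of all analysed genes in the 2 patterns, a count of 0 among 74 does not set the lists apart. In CAL27/5FU 14 of the 74 (18.9%) were higher and 10 (13.5%) lower, beside 8.46% and 6.72% of all analysed genes. In CAL27/OXA 12 (16.2%) were higher and 14 (18.9%) lower, beside 6.54% and 9.28%. All analysed genes had a median of -0.0035 in CAL27/5FU and of 0.0055 in CAL27/OXA.

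**Figure D5:**
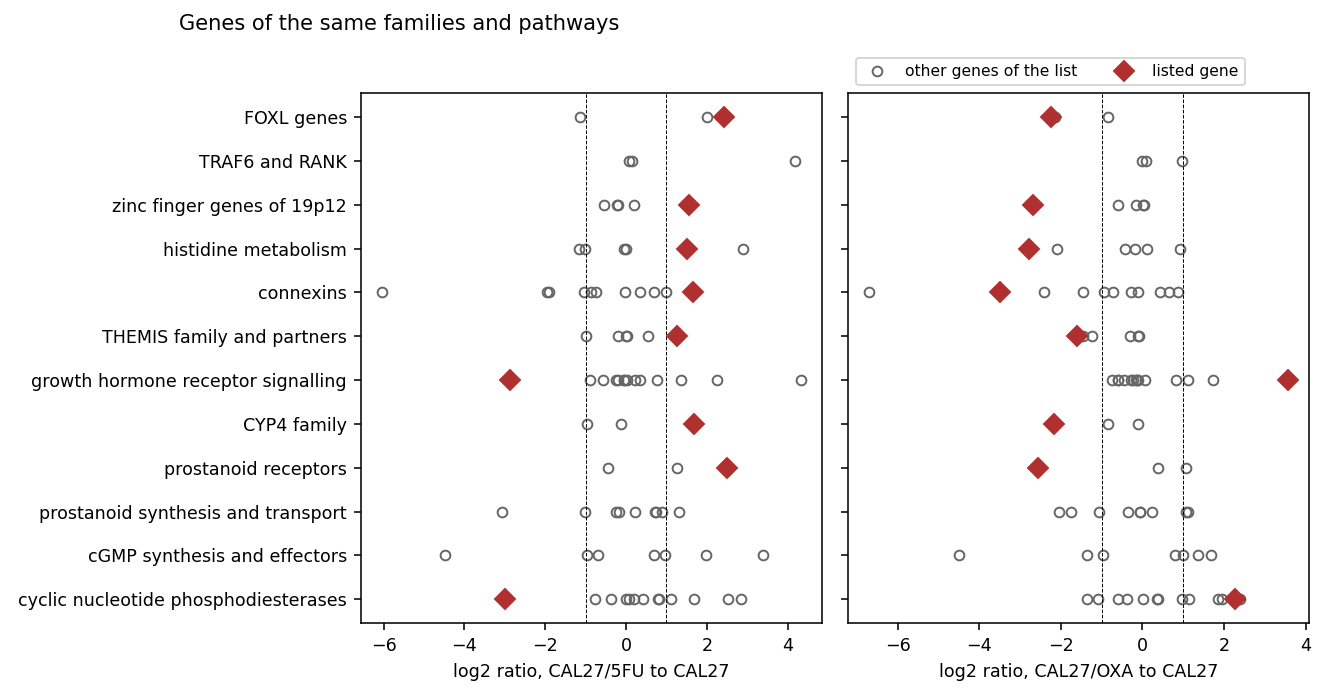
Log2 ratios to CAL27 of the other analysed genes in the 12 partner lists (open circles), in CAL27/5FU and CAL27/OXA, with dashed lines at 2-fold and any of the 9 genes in a list as a diamond. The connexins past 2-fold (4 of 10 in CAL27/5FU and 3 in CAL27/OXA) lie below CAL27, and none of the 74 genes lies past 2-fold on opposite sides.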

How the data were processed

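RNA was extracted with TRIzol, and libraries were made from total RNA with the NEBNext Ultra RNA kit. The submitters' processing notes name CASAVA 1.8, HISAT2 2.0.5 and GRCh38. The counting tool, annotation and strandedness are not given in the sources used here. Read counts per gene were deposited without normalization (19220 genes) beside FPKM values (19225 genes), which the authors scaled by gene length and total counts. The names of 3 further columns of per-sample values in each table end in -2 and read as second samples of the same lines, but match no sample label, so these columns were not used in any step.

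Scaling used TMM factors from edgeR 4.0.16 (R 4.3.3), computed across all 3 libraries. Ratios were taken between log2 CPM values with 2 as the prior count, for genes averaging 10 or more counts. Intervals are exact 95% Clopper-Pearson intervals on a pair of counts and cover counting error only, as does the floor of 3 counts. Neither includes biological or PCR variation. Positions and neighbours were taken from GENCODE 29 (GRCh38), promoter windows from RefSeq (GRCh38.p14). The scaling and the call of opposite ratios were tested on simulated counts, and the other steps were not. The changed genes of the simulation had means of at least 50 counts, changes of 4-fold and counting error only. It therefore does not cover lower counts, smaller changes or variation between cultures.

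Genes named are the 9 genes, the 10 other genes with the largest opposite ratios, the 3 nearest patterns in each direction, those nearest to the threshold, partner genes past 2-fold (up to 6 a list) and chromosomal neighbours past 2-fold, of which the text gives a selection made after their values were seen. GJA1, TRAF6, CYP4F11, CYP4V2, TBXA2R and the marker genes were given as members of the lists. Of the leukocyte markers, 1 is not reported here. The 9 genes and the lists were chosen with earlier results of these data known. The alternatives were scaling by the upper quartile, by total counts or by size factors of DESeq2 1.42.0, other filters, prior counts and thresholds, and FPKM with pseudocounts of 1 and 0.1.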

Additional observations from a re-analysis of the deposited data

How the results depend on the processing

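All 9 genes remained past 2-fold in opposite directions with DESeq2 size factors, total counts, the upper quartile, prior counts of 0.5 and 5 and no filter. No log2 ratio of the 9 genes changed sign under any alternative run. These alternatives reuse the libraries whose counts chose the genes, so a change of sign was hardly possible and nothing is concluded from its absence. Scaling by total counts shifted the median of all analysed genes to 0.17 (CAL27/5FU) and 0.14 (CAL27/OXA). The number of genes with opposite ratios, 88 as reported, was 143 without the filter on low counts, 58 with a mean of at least 50 counts, 264 at 1.5-fold, 9 at 4-fold, 23 with both intervals past 2-fold, 57 in FPKM with a pseudocount of 0.1 and 11 with a pseudocount of 1. Of the 9 genes, 4 were past 4-fold and 1 (AMDHD1) was past 2-fold in FPKM with a pseudocount of 1, which lies above the CAL27 level of 7 of the 9 and shrinks their ratios. With a mean of at least 50 counts ZNF675 was left out, and with a pseudocount of 0.1 GHR was no longer past 2-fold. Genes past 2-fold numbered 3454 in CAL27/5FU and 3273 in CAL27/OXA without the filter, and 814 and 849 in FPKM with a pseudocount of 1, against 2076 and 2163 as reported. Of 126 recomputed ratios of the 9 genes, 104 stayed within their counting interval. The 22 that left it all came from FPKM, 16 with a pseudocount of 1 and 6 with a pseudocount of 0.1. None came from a change of scaling or prior count. No paired analysis was possible because 1 library of each line was used, and none could be left out.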

Other observations

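MHC class II genes, chosen after their values were seen, included several with the same order of libraries as the 7 genes higher in CAL27/5FU. Of 10 analysed genes whose symbols begin with HLA-D, 6 had opposite ratios past 2-fold, all 6 higher in CAL27/5FU, the pattern of 0.453% of all analysed genes. HLA-DRA had log2 ratios of 1.69 (CAL27/5FU) and -3.04 (CAL27/OXA), HLA-DPA1 had 2.44 and -1.40, and HLA-DMB, which helps load peptides, had 1.19 and -3.94. HLA-DQB1 was higher in both lines (2.79 and 1.06), and HLA-DOB, HLA-DQA1 and HLA-DMA passed 2-fold in 1 line each. Several of these genes are near-identical in part and highly polymorphic, so that reads can be split between them, and how such reads were counted is not given in the sources used here.

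The fibroblast markers had a summed FPKM of 7.51 (CAL27), 11.9 (CAL27/5FU) and 14.9 (CAL27/OXA), and the endothelial markers 0.437, 2.28 and 1.04. In the fibroblast list LUM rose most in FPKM (1.36, 5.24 and 9.54). COL1A2 and PDGFRB were also higher in both resistant lines, and COL1A1 was lower (5.60, 4.83 and 4.08 FPKM). DCN had 2, 6 and 8 counts, and its counting intervals spanned no change in both lines. In the endothelial list only CDH5 was higher (0.248, 2.19 and 0.905 FPKM). VWF (44, 19 and 29 counts) was lower in both resistant lines. PECAM1 had 13, 6 and 11 counts, and its counting intervals spanned no change in both lines. The squamous epithelial markers summed to 6739, 1789 and 2504 FPKM. Their part in the ratios of the 9 genes was not tested.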
